A study of Mus musculus with 6 samples.

Results

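The 10 genes Mtor, Rptor, Rictor, Mlst8, Tsc1, Tsc2, Rheb, Prkaa1, Stk11 and Ddit4 encode parts of the mTOR and AMPK nutrient sensing network. They were taken by gene symbol, and all 10 were found among the 18543 genes of the count table. The data are messenger RNA counts from group 2 innate lymphoid cells (ILC2s), lymphocytes that release type 2 cytokines, sorted from lungs of C57BL/6 mice 8 weeks old. Every animal, of either genotype, had received 0.5 µg of recombinant mouse IL-33 through the nose on each of 3 days, and cells were taken on day 4. The groups are 3 libraries labelled wild type (WT 1, WT 2, WT 3) and 3 labelled Atg5-/- (KO 1, KO 2, KO 3), each prepared from 10 ng of RNA. The sources used here do not give the promoter or cell type of any Cre, the deleted exons of Atg5, the sex of the mice or whether a library came from 1 mouse, and the spread that p-values rest on may therefore be technical.

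mTOR is a kinase that works in a pair of complexes. mTORC1, which holds raptor (Rptor), promotes protein synthesis and restrains autophagy when amino acids and growth factors are plentiful. mTORC2, which holds rictor (Rictor), phosphorylates AKT and SGK kinases. The GTPase RHEB switches mTORC1 on at the lysosome, the TSC1-TSC2 complex switches RHEB off, and AMPK, activated by the kinase LKB1 (Stk11) when energy is short, acts against mTORC1 through TSC2 and raptor. DDIT4, also called REDD1, is induced by stress and favours the TSC complex. ATG5 acts downstream of this network, in building the autophagosome.

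The libraries held between 28827545 and 33662979 estimated counts, and 3 counts corresponded to 0.0892 to 0.104 CPM (counts relative to library size after TMM scaling). Atg5 was at 66.3, 71.8 and 21.8 CPM in the wild-type set and 23.0, 25.6 and 52.2 CPM in the knockout set. Values per set are always in the order of replicate numbers (WT 1, WT 2, WT 3 or KO 1, KO 2, KO 3), and sets are named by label only. The targeted gene goes against the label in the library labelled WT 3, which is lowest of all 6, and the library labelled KO 3 lies above WT 3 and well above KO 1 and KO 2. All directions below are between labels. Across 14052 genes log2 CPM of the library labelled WT 3 had r = 0.991 with that labelled KO 1 but r = 0.946 with that labelled WT 1 (across genes, which are not independent replicates). The library labelled KO 3 did not mirror this. It had r = 0.979 with KO 1 and with WT 3 and r = 0.980 with KO 2, but r = 0.933 with WT 1 and r = 0.935 with WT 2. Results are therefore given with all 6 libraries, without the library labelled WT 3, and without those labelled WT 3 and KO 3. The last 2 fits leave out libraries whose levels were already known. A gene that passes only there has no separate support for a difference between labels. The 9 ILC2 marker genes summed to 8336 and 8392 CPM in WT 1 and WT 2 but to 5145 to 5378 CPM in the other 4 libraries. This is the same division as in the comparisons without WT 3. Its size varied by gene. Id2 was at 2001 and 2138 CPM against 932 to 1033 CPM, and Il2ra at 2628 and 2587 CPM against 2075 to 2360 CPM. Of the 9, Il7r alone went the other way, at 95.5 and 93.1 CPM against 97.9 to 106 CPM. Each of 8 marker lists of other cells summed to at most 131 CPM. Epithelial markers (3 of 5 listed genes measured, led by Epcam) summed to 57.4, 52.3 and 14.5 CPM in the wild-type set. They summed to 13.1, 28.7 and 9.35 CPM in the knockout set, where Scgb1a1 gave 15.0 CPM in KO 2. Endothelial and stromal markers (3 of 5 measured) summed to 10.4, 8.57 and 93.6 CPM, then 107, 92.0 and 131 CPM. Nearly all of this was Pecam1, with Col1a1 at most 0.542 CPM. No measured marker was at 0 in all 6 libraries. Their part in the results below was not tested. In sorted cells measured in bulk, fewer cells of a type and less RNA per cell cannot be told apart.

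The sequences ahead of Ddit4 and Stk11 are shown because Ddit4 was the member with the largest difference between labels in any of the 3 fits, and Stk11 the member whose labels did not overlap. The Ddit4 difference, a log2 change of -0.82, came from the fit without WT 3 and KO 3. With all 6 libraries it was -0.23, smaller in size than in Tsc2, Mlst8, Stk11 and Rheb. Both stretches end at the base before the annotated gene start on the GRCm38.p6 build and are cut from RefSeq promoter windows, which were found for 10 of 10 members. Capitals mark ACGTG, the core of hypoxia response elements, and TGACG, a cAMP response element half-site, on either strand (CACGT and CGTCA are their reverse complements).
Ddit4 (chr10:59951835-59952020, reverse strand): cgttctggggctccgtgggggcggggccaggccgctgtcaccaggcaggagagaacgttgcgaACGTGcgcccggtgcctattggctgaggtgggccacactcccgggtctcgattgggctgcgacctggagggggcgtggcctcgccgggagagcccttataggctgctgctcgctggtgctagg
Stk11 (chr10:80115545-80115802, forward strand): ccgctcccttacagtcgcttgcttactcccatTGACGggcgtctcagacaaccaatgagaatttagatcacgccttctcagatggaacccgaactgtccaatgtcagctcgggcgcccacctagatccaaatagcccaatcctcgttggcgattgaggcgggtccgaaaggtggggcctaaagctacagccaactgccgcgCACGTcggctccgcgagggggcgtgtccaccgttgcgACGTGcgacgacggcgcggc
Ddit4 has ACGTG starting 123 bases before the gene. Stk11 has it starting 57 and 20 bases before the gene and TGACG starting 226 bases before it. In windows of 300 bases around the RefSeq start, ACGTG was present in 4 of 10 members (Rptor, Rheb, Stk11, Ddit4) and in 19.6% of all 32851 promoters, and TGACG in 5 of 10 and 20.8%. The E-box CACGTG, which contains ACGTG on both strands, was present in Rheb alone among the members and in 7.15% of all promoters. CCAAT was present in 4 of 10 members, with 4 copies in Mtor, and in 37.4% of all promoters. A match in letters is a description of the window and not evidence of binding.

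Per length of exon, Ddit4 was the most abundant member and Tsc1 the least. Levels over the 6 libraries were 64.8 ± 20.9 CPM per kb for Ddit4, 21.3 ± 3.52 for Rheb, 9.62 ± 1.92 for Mlst8, 7.67 ± 1.41 for Stk11 and 5.80 ± 1.63 for Prkaa1 (SD, n = 6, both labels pooled). They were 5.76 ± 1.29 CPM per kb for Tsc2, 4.07 ± 0.395 for Rictor, 2.90 ± 0.231 for Rptor, 2.46 ± 0.401 for Mtor and 1.31 ± 0.127 for Tsc1. The library ranges of neighbours in this order did not overlap between Ddit4 and Rheb, Rheb and Mlst8, Rictor and Rptor, or Mtor and Tsc1. They overlapped between Mlst8 and Stk11, Stk11 and Prkaa1, Prkaa1 and Tsc2, Tsc2 and Rictor, and Rptor and Mtor. Thus Tsc2 was measured at a higher level per length than its partner Tsc1 in every library, and Rictor at a higher level than Rptor. Lengths are unions of annotated exons. With the longest transcript instead, levels were over 1.5 times higher for Rheb (40.6), Tsc2 (8.85), Rictor (7.39), Rptor (5.92) and Tsc1 (2.01). Prkaa1, still at 5.80, then moved from place 5 to place 8, and places 1 to 4, 9 and 10 stayed as they were.

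**Figure D1:**
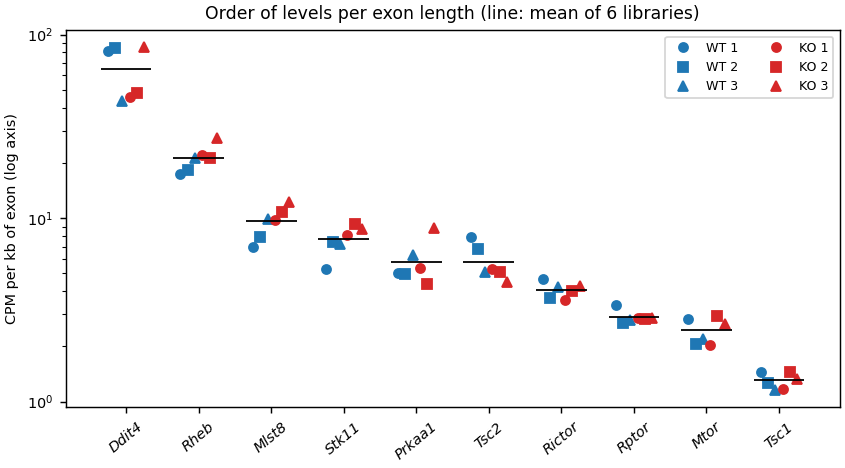
Level of each gene in CPM per kb of exon (vertical log axis) in every library, blue for the wild-type label and red for the knockout label, with a line at the mean of the 6 libraries. Genes are ordered by that mean, from Ddit4 at 64.8 to Tsc1 at 1.31.

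With all 6 libraries no member passed edgeR's quasi-likelihood test (0 of 10 at an adjusted p under 0.05), and 0 of 10 had an unadjusted p under 0.05. Over all 14052 genes tested, 0% passed at an adjusted p under 0.05 and 14.4% had an unadjusted p under 0.05. DESeq2 also passed 0 of 10 members, against 2.30% of all genes. The median log2 difference, knockout minus wild type, was 0.07 over the members and 0.02 over all genes tested. In 1 member, Stk11, the knockout set lay wholly above the wild-type set, and in none wholly below. Of all genes, 9.26% lay wholly above and 9.22% wholly below, so the members' share was near the background. Without the library labelled WT 3, 3 of 10 members passed (Mlst8 and Rheb higher, Tsc2 lower), against 33.9% of all genes. Without the libraries labelled WT 3 and KO 3, 5 of 10 passed (also Stk11 higher and Ddit4 lower), against 45.4% of all genes. Neither count departs far from its background share. The members also spread over the 6 libraries about as much as other genes, with a median of 0.73 log2 units from lowest to highest against 0.71 over 9054 genes whose mean log2 CPM reached 3.

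**Figure D2:**
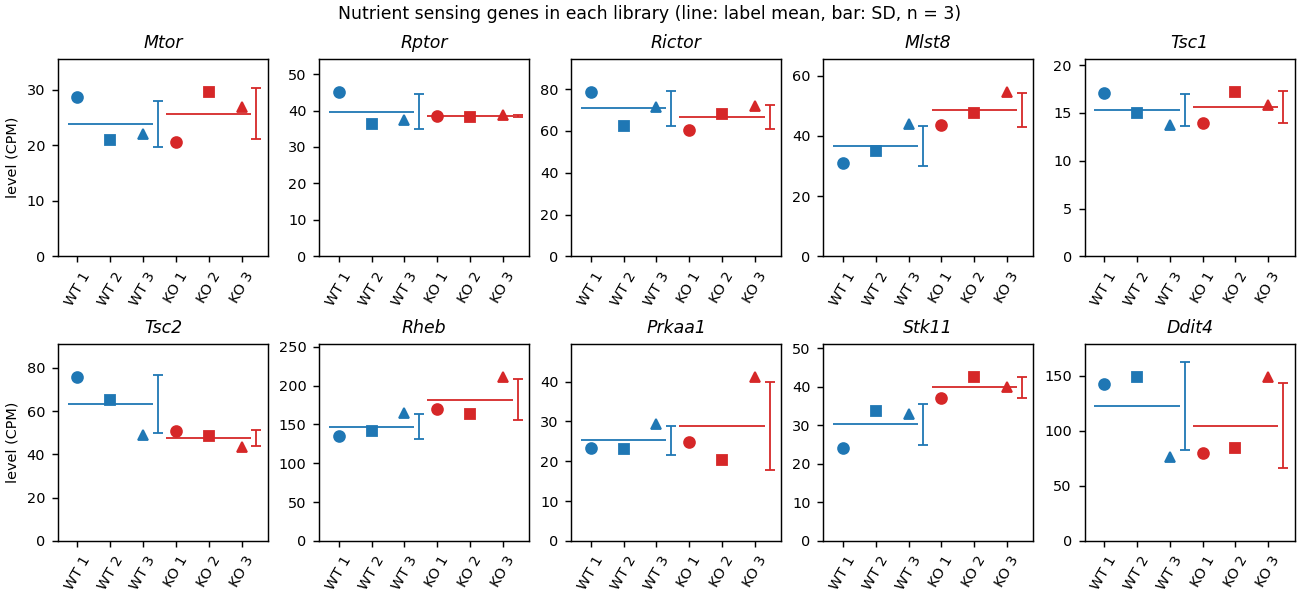
Level of each of the 10 genes in CPM (vertical axes, from 0) in each library, with lines at the means of the labels and bars for SD (n = 3). Ddit4 is at 143 CPM or more in the libraries labelled WT 1, WT 2 and KO 3 and at 84.4 CPM or less in the other 3.

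**Figure D3:**
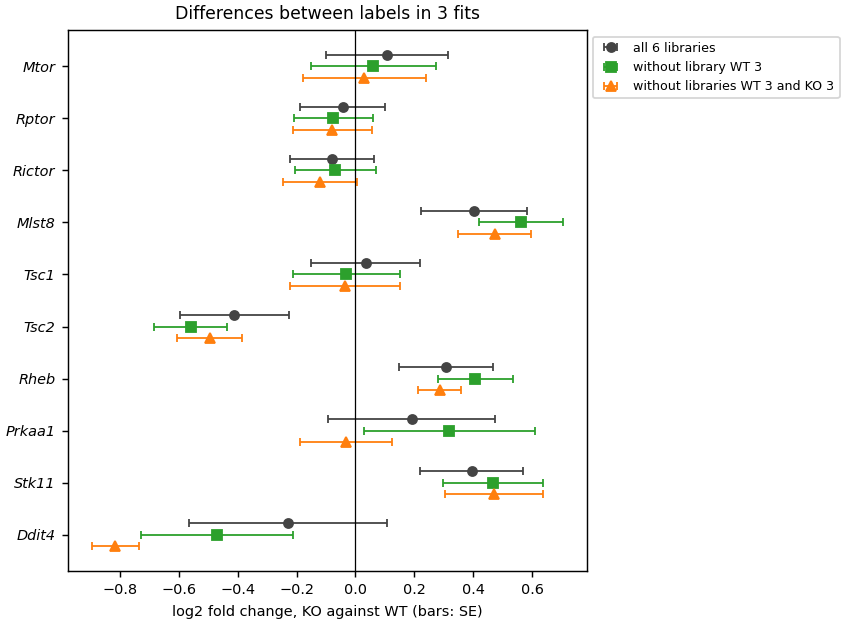
Log2 fold change, knockout against wild type, of each gene in edgeR fits to all 6 libraries, without the library labelled WT 3, and without those labelled WT 3 and KO 3; bars are SE. Mtor, Rptor, Rictor and Tsc1 stay near 0 in all 3 fits, while Ddit4 goes from -0.23 to -0.82.

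Among the mTOR complex genes, the kinase and its scaffolds were nearly level between labels. Mtor, the kinase itself (chromosome 4, 148448611 to 148557683, forward strand, mm10), was at 28.7, 20.9 and 22.1 CPM in the wild-type set and 20.7, 29.6 and 26.9 CPM in the knockout set. The groups overlapped fully, with the highest and the lowest library both labelled knockout. The log2 difference was 0.11 (SE 0.21, adjusted p = 0.790, edgeR), and its 95% interval runs from 0.766-fold to 1.51-fold. The spread among libraries of a label, 17.4% and 17.8% of the mean, was well above the 3.71% and 3.51% that counting error alone would give (counts are not independent molecules, so this covers counting only).

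Rptor, the mTORC1 scaffold that recruits substrates (chromosome 11, 119602905 to 119899576, forward strand), was at 45.1, 36.2 and 37.5 CPM in the wild-type set and 38.4, 38.2 and 38.7 CPM in the knockout set. The libraries labelled knockout lay inside the range of the others and differed from each other by less (0.628% of the mean) than counting error would give (2.89%). The log2 difference was -0.04 (SE 0.14, adjusted p = 0.876, edgeR; interval 0.768-fold to 1.23-fold). Rictor, the scaffold of mTORC2 (chromosome 15, 6708379 to 6800401, forward strand), was at 78.7, 62.3 and 71.3 CPM, then 60.6, 68.2 and 71.9 CPM. Its groups overlapped too, with a log2 difference of -0.08 (SE 0.14, adjusted p = 0.766, edgeR; interval 0.748-fold to 1.19-fold). Mtor, Rptor and Rictor passed in none of the 3 fits. In all 3 genes the library labelled WT 1 lay above that labelled WT 2, by 0.31 (Rptor) to 0.44 (Mtor) log2 units.

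Mlst8, a small subunit shared by both complexes (chromosome 17, 24473550 to 24479078, reverse strand), was at 31.0, 35.1 and 44.1 CPM in the wild-type set and 43.5, 47.7 and 54.6 CPM in the knockout set. The libraries labelled WT 1 and WT 2 were the lowest, and that labelled WT 3 lay just above KO 1. Means were 36.7 ± 6.71 and 48.6 ± 5.62 CPM (SD, n = 3 each), a log2 difference of 0.40 (SE 0.18, adjusted p = 0.348, edgeR). Mlst8 rose by 0.56 once the WT 3 library was left out (SE 0.14, adjusted p = 0.0212, edgeR) and by 0.47 without those labelled WT 3 and KO 3 (SE 0.12, adjusted p = 0.0109). The annotation places 22.5% of its exon bases under exons of Bricd5 on the opposite strand. The sources used here do not say whether counting used strand, but Bricd5 itself reached at most 0.766 CPM.

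In the TSC and RHEB branch, none of Tsc1, Tsc2 and Rheb passed with all 6 libraries. Once the WT 3 library was left out Tsc2 passed as lower and Rheb as higher, as 33.9% of all genes then passed. Tsc1 passed in none of the 3 fits. Tsc1, which encodes hamartin and stabilises TSC2 (chromosome 2, 28641228 to 28691167, forward strand), was at 17.1, 15.0 and 13.7 CPM in the wild-type set and 13.9, 17.2 and 15.8 CPM in the knockout set. The groups overlapped, and the log2 difference was 0.03 (SE 0.19, adjusted p = 0.929, edgeR; interval 0.755-fold to 1.39-fold), with a sign that changes under a stricter or absent filter on low counts.

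Tsc2, which encodes tuberin, the subunit that inactivates RHEB (chromosome 17, 24595816 to 24632630, reverse strand), was at 76.0, 65.0 and 49.0 CPM in the wild-type set and 50.7, 48.7 and 43.3 CPM in the knockout set. The libraries labelled WT 1 and WT 2 stood above the other 4, and that labelled WT 3 lay among those labelled knockout. With all 6 libraries the log2 difference of -0.41 did not pass (SE 0.19, adjusted p = 0.350, edgeR). Tsc2 fell by 0.56 once the WT 3 library was left out (SE 0.12, adjusted p = 0.0125, edgeR) and by 0.50 without those labelled WT 3 and KO 3 (SE 0.11, adjusted p = 0.00473). Exons of Pkd1 on the opposite strand cover 7.20% of its exon bases, and Pkd1 was at 28.5 to 43.4 CPM, so reads in the shared bases are uncertain. Mlst8 and Tsc2 lie 117 kb apart on chromosome 17 and differed between labels in opposite directions.

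Rheb, the GTPase that activates mTORC1 (chromosome 5, 24802823 to 24842624, reverse strand), was at 135, 141 and 165 CPM in the wild-type set and 170, 164 and 212 CPM in the knockout set. The library labelled KO 3 was the highest, and those labelled WT 3, KO 1 and KO 2 lay within 7 CPM of each other. The log2 difference was 0.31 (SE 0.16, adjusted p = 0.366, edgeR). Rheb rose by 0.41 once the WT 3 library was left out (SE 0.13, adjusted p = 0.0465, edgeR) and by 0.29 without those labelled WT 3 and KO 3 (SE 0.07, adjusted p = 0.0106).

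In the energy sensing branch, Stk11 did not overlap between labels and in Prkaa1 1 library stood apart. Stk11, the kinase LKB1 that activates AMPK (chromosome 10, 80115803 to 80130682, forward strand), was at 24.2, 33.8 and 33.0 CPM in the wild-type set and 37.2, 42.7 and 39.9 CPM in the knockout set. Here the library labelled WT 3 lay with WT 2, below all 3 labelled knockout, and 0.27 log2 units below the mean of KO 1 and KO 2. Means were 30.4 ± 5.33 and 39.9 ± 2.75 CPM (SD, n = 3 each). The log2 difference of 0.40 (SE 0.18) had the lowest adjusted p of the members, 0.348 in edgeR's test, where the smallest over all genes was 0.342. It was 0.47 once the WT 3 library was left out (SE 0.17, adjusted p = 0.0748, edgeR) and again 0.47 without those labelled WT 3 and KO 3 (SE 0.17, adjusted p = 0.0445). Exons of Cbarp on the opposite strand, a gene at 1.80 to 3.70 CPM, cover 5.07% of its exon bases.

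Prkaa1, the catalytic alpha 1 subunit of AMPK (chromosome 15, 5143861 to 5181899, forward strand), was at 23.3, 23.0 and 29.3 CPM in the wild-type set and 24.8, 20.3 and 41.3 CPM in the knockout set. The library labelled KO 3 stood above the other 5, and that labelled KO 2 was the lowest. The log2 difference was 0.19 (SE 0.28, adjusted p = 0.718, edgeR) with all 6 libraries, 0.32 without the library labelled WT 3 and -0.03 without those labelled WT 3 and KO 3. The level in the library labelled KO 3 was 0.86 log2 units above the mean of those labelled KO 1 and KO 2, and 1.94% of the 9054 genes had a larger such difference. Prkaa2, the gene of the other catalytic subunit, reached at most 0.459 CPM.

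Ddit4, the stress-induced inhibitor of mTORC1 (chromosome 10, 59949669 to 59951834, reverse strand), was high in 3 libraries and low in 3, and these did not follow the labels. It was at 143, 149 and 76.6 CPM in the wild-type set and 80.2, 84.4 and 149 CPM in the knockout set. The libraries labelled WT 1, WT 2 and KO 3 were all at 143 CPM or more, and the other 3 at 84.4 CPM or less. The libraries labelled WT 1, WT 2 and KO 3 were also the highest in Atg5. The share of all genes divided in this way was not counted, and a link between Ddit4 and Atg5 was not tested. Counting error for Ddit4 was 1.64% and 1.75% of the mean, against a spread of 32.6% and 37.0% among libraries of a label. With all 6 libraries the log2 difference was -0.23 (SE 0.34, adjusted p = 0.713, edgeR; interval 0.492-fold to 1.48-fold). It was -0.47 once the WT 3 library was left out (SE 0.26, adjusted p = 0.208, edgeR). Without those labelled WT 3 and KO 3, Ddit4 fell by 0.82, to 0.568-fold (SE 0.08, adjusted p = 2.8e-05, edgeR). That fit compares 2 libraries with 2 and leaves out libraries whose Ddit4 as well as Atg5 levels were known, so it cannot count as separate support for a lower level. The level in the library labelled KO 3 was 0.86 log2 units above the mean of KO 1 and KO 2, and 1.97% of the 9054 genes had a larger such difference.

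Sesn2, Trib3 and Ddit3, from the list of Ddit4 relatives and stress genes given below, fell into different patterns. Lpin1 was added from the list of mTORC1 and AMPK substrates. The following genes were named after their values were seen. Sesn2, a leucine sensor that restrains mTORC1, was at 154 and 141 CPM in WT 1 and WT 2, 103 CPM in WT 3, 99.5 and 103 CPM in KO 1 and KO 2, and 200.1 CPM in KO 3. Lpin1, a phosphatidate phosphatase and mTORC1 substrate, was at 89.6, 88.6 and 26.8 CPM in the wild-type set and 24.6, 23.7 and 139 CPM in the knockout set. Both were thus, like Ddit4, high in WT 1, WT 2 and KO 3. Trib3, an ATF4 target, was instead lowest in WT 1 and WT 2, at 58.0 and 65.5 CPM, with 182 CPM in WT 3 and 155, 180 and 480 CPM in KO 1, KO 2 and KO 3. Ddit3, which encodes the stress factor CHOP, was at 38.4 to 45.8 CPM in 5 libraries and at 153 CPM in that labelled KO 3. The library labelled KO 3 was the highest of the 6 in Prkaa1, Sesn2, Lpin1, Trib3 and Ddit3, and level with WT 2 in Ddit4. Of the other genes in the stress list, Ddit4l, Atf4, Tsc22d3, Vegfa and Chac1 were also highest in KO 3. Hif1a was instead lowest there, at 602 CPM. Txnip, at 95.4 CPM in KO 3, lay below WT 1 and WT 2, at 142 and 137 CPM.

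**Figure D4:**
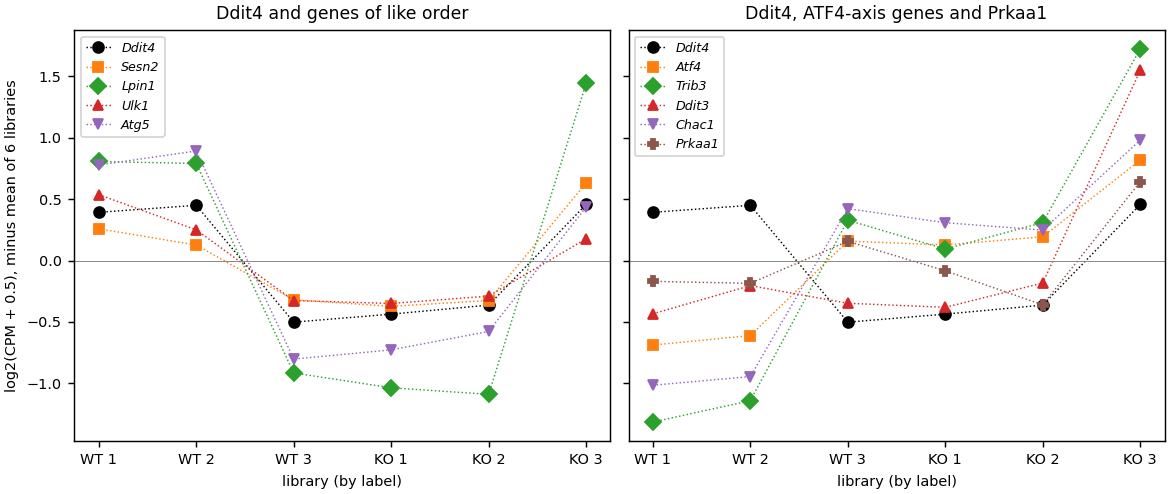
Log2(CPM + 0.5) of each gene minus its mean over the 6 libraries (vertical axis) by library; dotted lines only join the points of a gene. At left Ddit4, Sesn2, Lpin1, Ulk1 and Atg5 are high in the libraries labelled WT 1, WT 2 and KO 3; at right Atf4, Trib3 and Chac1 are lowest in WT 1 and WT 2, while Ddit3 and Prkaa1 stand out in KO 3.

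The balance of partner genes does not depend on library scaling. The log2 ratio of Rictor to Rptor in CPM was 0.84 ± 0.08 under the wild-type label and 0.80 ± 0.12 under the knockout label (SD, n = 3 each), a difference smaller than the spread. The log2 ratio of Tsc2 to Tsc1 was 2.15, 2.11 and 1.84 in the wild-type set against 1.87, 1.50 and 1.46 in the knockout set. The ranges overlapped only between WT 3 and KO 1, and the means differed by -0.43. The log2 ratio of Prkaa1 to Stk11 was -0.26 ± 0.26 and -0.54 ± 0.56. It was highest in the library labelled KO 3 (0.05) and lowest in that labelled KO 2 (-1.07). With 3 libraries against 3 an exact permutation test cannot give a two-sided p below 0.1, so no p is given for these ratios.

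The rest of the network was taken from 7 lists that together hold 86 gene symbols, of which 82 were matched and 79 were tested. Castor1 and Castor2 were listed beside Gatsl3 and Gatsl2, other symbols of the same genes, and only the latter were matched. With all 6 libraries 0 of 79 passed edgeR's test, with 13 at an unadjusted p under 0.05 (14.4% of all genes were). In 4 of the 79 the knockout set lay wholly above the wild-type set and in 8 wholly below. Of all genes 9.26% and 9.22% did, so a lack of overlap in a gene named below is not unusual. DESeq2 passed 4 (Deptor, Gatsl2, Gatsl3 and Pik3cg, all lower), and its calls over all genes were 15 higher and 308 lower. Of 80 tested once the WT 3 library was left out, 15 rose and 15 fell, a share close to the 33.9% of all genes. Without those labelled WT 3 and KO 3, 16 rose and 21 fell of 80, near the 45.4% of all genes. The examples named with values for each list are the pair with the lowest p in each list with all 6 libraries. The changes given are from edgeR's fit without the library labelled WT 3, with the limit stated above for such fits.

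Among 8 other mTOR complex subunits and assembly factors 2 rose and 1 fell (median -0.17, against 0.02 over all genes). Deptor, an inhibitory subunit of both complexes, was at 4.23 and 4.32 CPM in WT 1 and WT 2, 1.09 CPM in WT 3 and 0.327 to 0.925 CPM in the knockout set, and fell by 2.74 (SE 0.48, adjusted p = 0.00476, edgeR). Akt1s1, which encodes the mTORC1 inhibitor PRAS40, was at 14.6 to 26.2 CPM in the wild-type set against 29.5 to 33.6 CPM in the knockout set, and rose by 0.99 (SE 0.15, adjusted p = 0.00262). Both are inhibitors of mTORC1.

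The list of Rag and Ragulator genes, which bring mTORC1 to the lysosome, also holds Slc38a9 and the TSC partner Tbc1d7. It had 0 of 10 higher and 1 lower (median 0.05). Lamtor4 was at 41.2 and 45.9 CPM in WT 1 and WT 2 against 21.3 to 26.3 CPM in the other libraries and fell by 0.91 (SE 0.15, adjusted p = 0.00336, edgeR). Rraga did not pass, at 47.4 to 53.6 CPM and 54.4 to 65.7 CPM. Among 17 GATOR, KICSTOR and amino acid sensor genes 5 rose and 3 fell (median 0.10). The arginine sensor CASTOR1, listed as Gatsl3, was at 59.1 and 59.1 CPM in WT 1 and WT 2, 18.2 CPM in WT 3 and 12.6 to 19.4 CPM in the knockout set. It fell by 1.91 (SE 0.19, adjusted p = 0.00043, edgeR). CASTOR2, listed as Gatsl2, was at 23.2 and 23.4 CPM, with 6.89 CPM in WT 3 and 3.84 to 7.28 CPM in the knockout set, and fell by 2.06 (SE 0.27, adjusted p = 0.00146). The 5 that rose were the GATOR2 genes Mios, Wdr59, Seh1l and Sec13 and the KICSTOR gene Itfg2, and the third that fell was Sesn3.

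Among 10 other AMPK subunits and LKB1 partners 1 rose (Strada) and 1 fell (Stradb), the pseudokinases that bind LKB1 (median -0.12). Stradb was at 36.5 and 27.7 CPM in WT 1 and WT 2, 18.6 CPM in WT 3 and 17.6 to 22.6 CPM in the knockout set, and fell by 0.68 (SE 0.18, adjusted p = 0.0257, edgeR). Prkab2, a regulatory beta subunit, did not pass, at 3.31 to 5.15 CPM and 4.61 to 9.22 CPM. Of 12 substrates of mTORC1 or AMPK 4 rose and 1 fell (median 0.06). Eif4ebp1, the translation repressor that mTORC1 inactivates, was at 155 and 171 CPM in WT 1 and WT 2, 295 CPM in WT 3 and 291 to 392 CPM in the knockout set, and rose by 1.03 (SE 0.15, adjusted p = 0.00184). Grb10, an adaptor that restrains insulin signalling, was at 1.24 to 5.27 CPM and 5.83 to 11.6 CPM, and rose by 2.13 (SE 0.45, adjusted p = 0.0109).

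The PI3K, AKT and SGK list had 0 of 14 higher and 6 lower (median -0.24). Of all 14743 genes tested without the library labelled WT 3, 2611 were higher and 2380 lower. With all 6 libraries 0 of the 14 passed in either direction. Pik3cd, the leukocyte catalytic subunit p110 delta, was at 537 and 502 CPM in WT 1 and WT 2 against 174 to 204 CPM in the other libraries, and fell by 1.47 (SE 0.10, adjusted p = 0.00012, edgeR). Pik3cg, which encodes p110 gamma, was at 99.2 to 125 CPM in the wild-type set against 72.4 to 81.3 CPM in the knockout set, without overlap, and fell by 0.62 (SE 0.10, adjusted p = 0.00315). Inpp5d, Akt2 and Sgk1 fell as well. In the list of Ddit4 relatives and stress genes 3 of 10 rose (Atf4, Trib3, Chac1) and 2 fell (Hif1a, Txnip), with a median of 0.80 that was 0.16 once the library labelled KO 3 was left out as well. Hif1a, a hypoxia factor that can induce Ddit4, was at 782 to 1064 CPM and 602 to 750 CPM, without overlap, and fell by 0.67 (SE 0.11, adjusted p = 0.00321). Atf4, the factor of the amino acid response, was at 240.2 and 253 CPM in WT 1 and WT 2, 432 CPM in WT 3 and 423 to 683 CPM in the knockout set, and rose by 1.07 (SE 0.21, adjusted p = 0.0078).

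**Figure D5:**
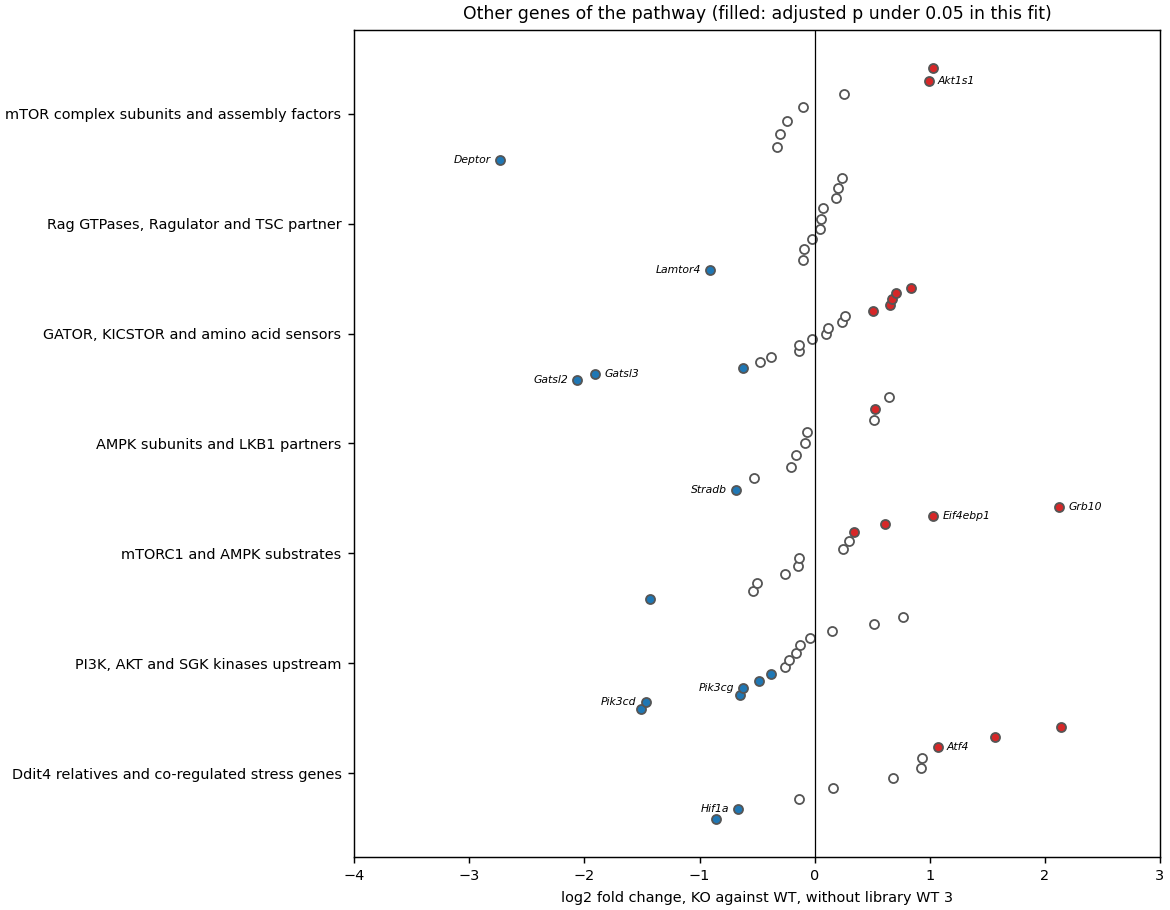
Log2 fold change of each gene of the 7 lists that was also tested with all 6 libraries, in edgeR's fit without the library labelled WT 3 (horizontal axis); filled points have an adjusted p under 0.05 in that fit, red higher and blue lower under the knockout label, and the filled points given above with values are named. The PI3K, AKT and SGK list has 6 filled points, all lower, and the Rag and Ragulator list 1.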

How the data were processed

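CASAVA 1.8.2 and the mm10 build, along with STAR and Partek, are listed without roles per the submitters' processing notes, and the STAR version there could not be used. The authors deposited estimated counts per gene, of which 47.1% to 48.5% per library were whole (within 1e-06), and a table of normalized signal. The median ratio of the estimated count plus 1 to the deposited signal was 31.2 to 36.0 per library. Estimated counts were rounded, then compared by edgeR 4.0.16 under R 4.3.3 (TMM, filterByExpr, robust glmQLFit, glmQLFTest), knockout against wild type with no covariate, Benjamini-Hochberg adjustment over all genes and a threshold of 0.05. An SE is the log2 fold change divided by the square root of F. Alternatives were other scalings and filters, DESeq2 1.42.0, limma 3.58.1 (voom, or trend on the deposited signal plus 1), a replicate block and left-out libraries. Members and lists were chosen with earlier results of these data known. Named genes are all members, Atg5 and the 2 of lowest p in each list; most genes that pass are listed by name beside their count, and others are said to be named after their values were seen. Likeness is the root mean square difference of centred log2(CPM + 0.5). Positions are those of the deposited table (end reduced by 1 base), of which 9 of 10 members match GENCODE vM21 exactly. A gene that passed is counted but not reported here by name.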

Additional observations from a re-analysis of the deposited data

How the results depend on the processing

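Over 10 alternatives that keep all 6 libraries (scaling, filter, tool, dispersion, block), 98 of 100 member values kept their direction and none passed the test. The other 2 were Tsc1, at -0.0020 with no filter and -0.0035 with a filter of 2 CPM in 3 libraries. Members past the threshold numbered 0 to 3 with any single library left out and 5 without those labelled WT 3 and KO 3. Other pathway genes past the threshold numbered 0 to 30 with any single library left out, 37 without those labelled WT 3 and KO 3, and 4 by DESeq2. The counts of 3 and 30 come from leaving out the library labelled WT 3. Without any other single library both counts were 0. Without those labelled WT 3 and KO 3, Tsc1 was at -0.04 and Prkaa1 at -0.03. With single libraries left out the log2 fold change ran from -0.037 to 0.25 for Mtor, -0.11 to 0.035 for Rptor, -0.070 to 0.12 for Tsc1 and -0.16 to 0.36 for Prkaa1, and the log2 Rictor to Rptor difference from -0.090 to 0.028. The causes were not tested. A replicate block gave 0 members and 0 other pathway genes. Same-numbered libraries did not deviate together (r from -0.02 to 0.02). With 3 libraries per label and WT 3 apart from WT 1 and WT 2, this check cannot exclude a pairing. The labels give none, so the numbers are not taken to pair libraries. Depth limits genes near 1 CPM, such as Deptor.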

Other observations

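For each member the genes of most similar pattern over the 6 libraries were sought among 8649 genes whose mean log2 CPM reached 3 (gene models without a given name left out), by the root mean square difference of centred log2 values. With so many genes and only 6 libraries, some close match is found for nearly any pattern. Nearest to Ddit4 were Smim14 (difference 0.072), at 132, 139 and 63.5 CPM in the wild-type set and 70.1, 72.6 and 122 CPM in the knockout set, and Stat2 (0.084), at 47.7, 48.3 and 23.8 CPM and at 30.03, 29.7 and 50.04 CPM. Within the pathway lists the nearest were Ulk1 (0.17), the kinase that starts autophagy and is a target of mTORC1 and AMPK, and Sesn2 (0.18). Nearest to Tsc2 were Smc1a and Man2c1, and within the lists Akt2 (0.067). Nearest to Rheb were Oser1 and Vcp, and Rheb and Mlst8 were each other's nearest member (0.10). Nearest to Mtor were Pcgf1 and Chd4, to Rptor Dnajc13 and Rnf41, to Rictor Scaf1 and Aktip, and to Mlst8 Ddt and Vti1a. Nearest to Tsc1 were Cd274 and Tarbp2, to Prkaa1 Nfxl1 and Dennd4a, and to Stk11 Med29 and Bbip1. Rptor and Rictor were each other's nearest member (0.086).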
